A study of Mus musculus with 11 samples.

Results

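The genes described here are 9 members of the retinoid pathway, read in 3 kinds of mouse embryonic motor neuron. They are Stra6, Aldh1a2, Aldh1a3, Crabp1, Crabp2, Cyp26b1, Rara, Rarb and Rarg, chosen by name as parts of retinoid uptake, synthesis, binding, breakdown and reception. The choice was made with earlier results of these data known. All 9 of 9 had at least 1 probe set with a single gene symbol, among 18193 genes so measured. The 9 had 12 such probe sets, none shared with another gene, and where a gene had several, the one with the highest mean over all arrays stands for it.

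Retinoic acid is a small lipid signal made from vitamin A. Retinol enters cells through the receptor STRA6, is oxidised to retinaldehyde and then to retinoic acid by aldehyde dehydrogenases, is carried by small cytosolic binding proteins, and is broken down by CYP26 enzymes. Inside the nucleus it binds the retinoic acid receptors RARA, RARB and RARG, which pair with RXR partners on response elements in target genes. In the developing spinal cord it is known to pattern motor neurons, to set Hox expression at brachial levels and, from the limb-level motor neurons that make it with Aldh1a2, to shape the lateral motor column.

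RNA was measured on 11 arrays, 1 per sample, from C57/BL6 embryos whose age the labels do not give. All embryos carried the Hb9::GFP reporter, which marks motor neurons, and in trunk explants a dextran-tetramethylrhodamine tracer was applied to the phrenic or the radial nerve before cells were sorted from the dissociated cord. The phrenic group, 4 arrays, held neurons of the nerve that drives the diaphragm. The LMC radial group, 3 arrays, held lateral motor column neurons of the radial nerve, a limb nerve, and its titles name no spinal segment, so segment and cell type cannot be told apart in comparisons with it. The C3-C5 GFP-only group, 4 arrays, held cells of cervical segments C3 to C5 with the reporter and without tracer, a mixture of the reporter-positive cells there. Tracer labelling and cell type thus cannot be told apart in comparisons with this group. The labels do not say that replicates came from separate embryos, so p-values measure the spread between these arrays, which may be technical.

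Levels are log2 values of the authors' RMA processing, and a difference of 1 is a factor of 2. Levels below 5 lie near the background of these arrays, and a fold against a mean below 5 is written as a lower bound with values below 5 raised to 5. The 6 motor neuron markers averaged 7.50 to 7.95 on the phrenic arrays, 6.80 to 7.16 on the LMC radial arrays and 7.87 to 8.09 on the C3-C5 GFP-only arrays. Isl1 (mean 9.63 in LMC radial, 12.32 in phrenic) and Mnx1 (8.14 and 9.01) passed as lower in LMC radial than in both other types. Slc18a3 (7.78 and 7.70) and Isl2 (6.73 and 6.79) were near their phrenic means, and Chat and Slc5a7 lay near 5. Isl2 passed as higher in C3-C5 GFP-only samples, at a mean of 7.78, than in both other types. Lhx3 and Lhx4, markers of the medial motor column, averaged 5.90 to 8.11 on phrenic arrays, 6.07 to 6.13 on LMC radial arrays and 10.85 to 11.05 on C3-C5 GFP-only arrays. Foxp1 and Lhx1, markers of the limb (lateral) motor column, averaged 9.54 to 10.83 on phrenic arrays, 12.10 to 12.24 on LMC radial arrays and 11.26 to 11.57 on C3-C5 GFP-only arrays. The 3′ to 5′ difference of Actb, a sign of RNA quality, was 1.05 to 2.15 on phrenic arrays, 1.01 to 1.12 on LMC radial arrays and 1.07 to 1.98 on C3-C5 GFP-only arrays. The array medians ran from 4.48 to 4.63, and the 25th percentile split the arrays into a set of 4 at 3.18 to 3.20 (replicates 2 and 3 of phrenic and of C3-C5 GFP-only) and a set of 7 at 3.26 to 3.38. Genes of mesenchyme and meninges, tissues next to the cord, averaged higher on all 4 phrenic arrays (5.31 to 6.86) and on the LMC radial arrays (4.97 to 6.06) than on the C3-C5 GFP-only arrays (4.46 to 4.80). All 18 of these markers were measured, and 13 reached a mean of 5 in at least 1 type. Of the 18, 4 (22.2%) passed as higher in phrenic over C3-C5 GFP-only samples, against 0.973% of all probe sets. These were Fn1, Foxc1, Lama4 and Nid1. In LMC radial over C3-C5 GFP-only samples 1 of the 18 (5.56%), Igf2, passed as higher, against 1.88% of all probe sets.

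Against C3-C5 GFP-only cells, phrenic neurons had less Stra6, Aldh1a2 and Rarb RNA. Against LMC radial neurons they had less Stra6, Aldh1a2 and Crabp2 and more Crabp1. LMC radial neurons had less Crabp1, Cyp26b1 and Rarb than C3-C5 GFP-only cells. In counts, 3 of 9 members passed in phrenic over C3-C5 GFP-only samples, 0 higher and 3 lower, where 1.96% of all 45037 tested probe sets passed (0.973% higher and 0.986% lower). In phrenic over LMC radial samples 4 of 9 passed, 1 higher and 3 lower, against 6.61% of all probe sets (3.48% higher and 3.14% lower). In LMC radial over C3-C5 GFP-only samples 3 of 9 passed, 0 higher and 3 lower, against 3.76% (1.88% in each direction). The arrays of both types did not overlap in 4 of 9 members in phrenic over C3-C5 GFP-only (7.49% of all probe sets), in 4 of 9 in phrenic over LMC radial (18.7%) and in 6 of 9 in LMC radial over C3-C5 GFP-only (23.1%). The median absolute difference of the 9 members was 0.30, 0.25 and 0.33 log2 in these comparisons in the same order, and over all probe sets it was 0.139, 0.210 and 0.203. The comparisons share arrays in pairs, so their counts are not independent of each other. Because the members were chosen with earlier results known, their counts beside the shares of all probe sets are a description only. Altogether 6 members passed in at least 1 comparison and 3 in none. These are bulk samples, so fewer cells of a type and less RNA per cell cannot be told apart.

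**Figure D1:**
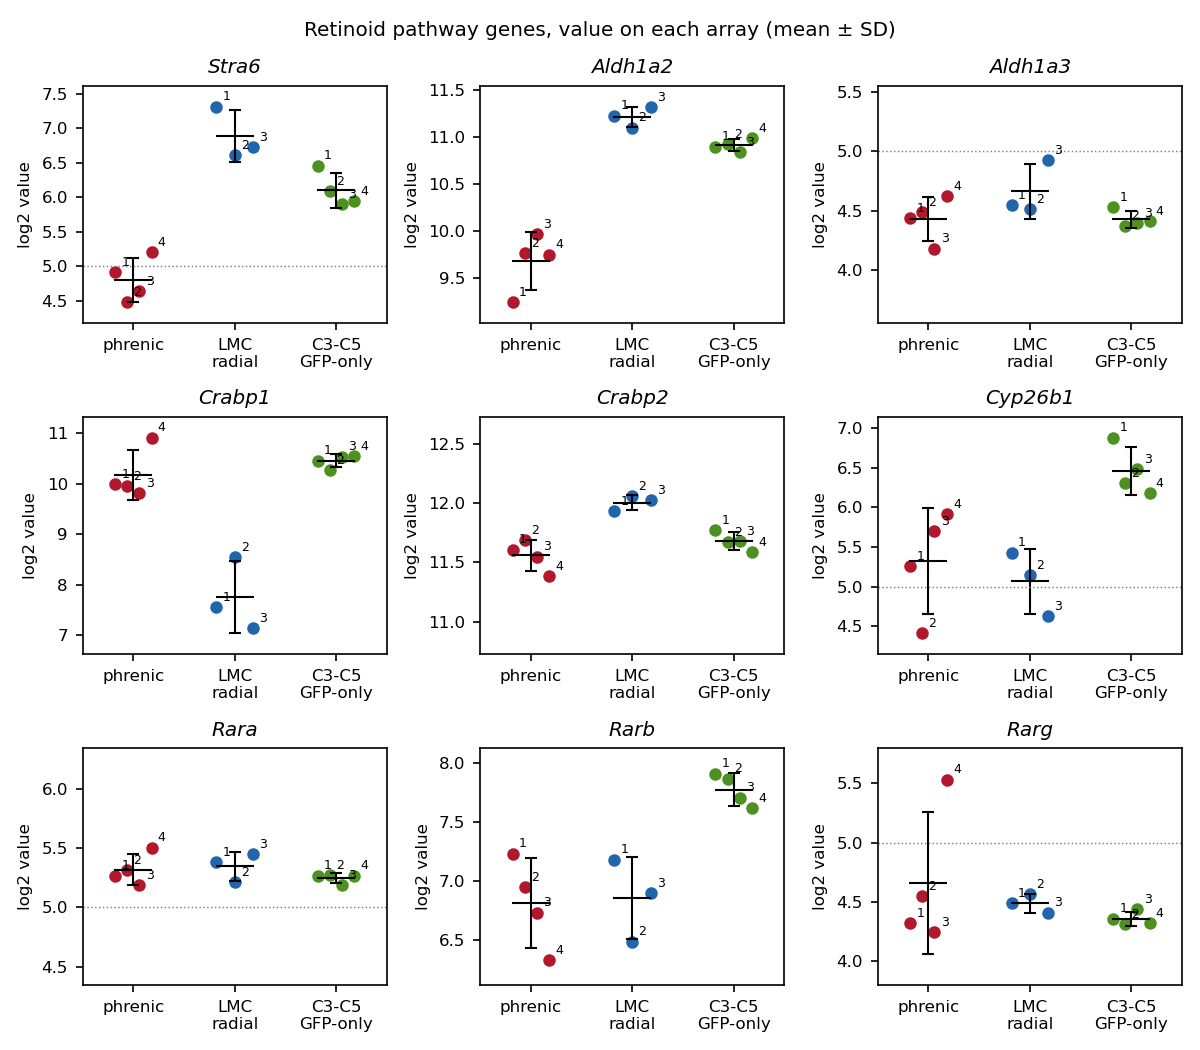
RMA log2 level of each member on every array, with phrenic, LMC radial and C3-C5 GFP-only arrays from left to right with the group mean ± SD as bars, replicate numbers beside the points and a dotted line at 5 where it falls in range. Phrenic arrays lie below all others for Stra6 and Aldh1a2, LMC radial arrays lie below all others for Crabp1, and C3-C5 GFP-only arrays lie above all others for Rarb and Cyp26b1.

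**Figure D2:**
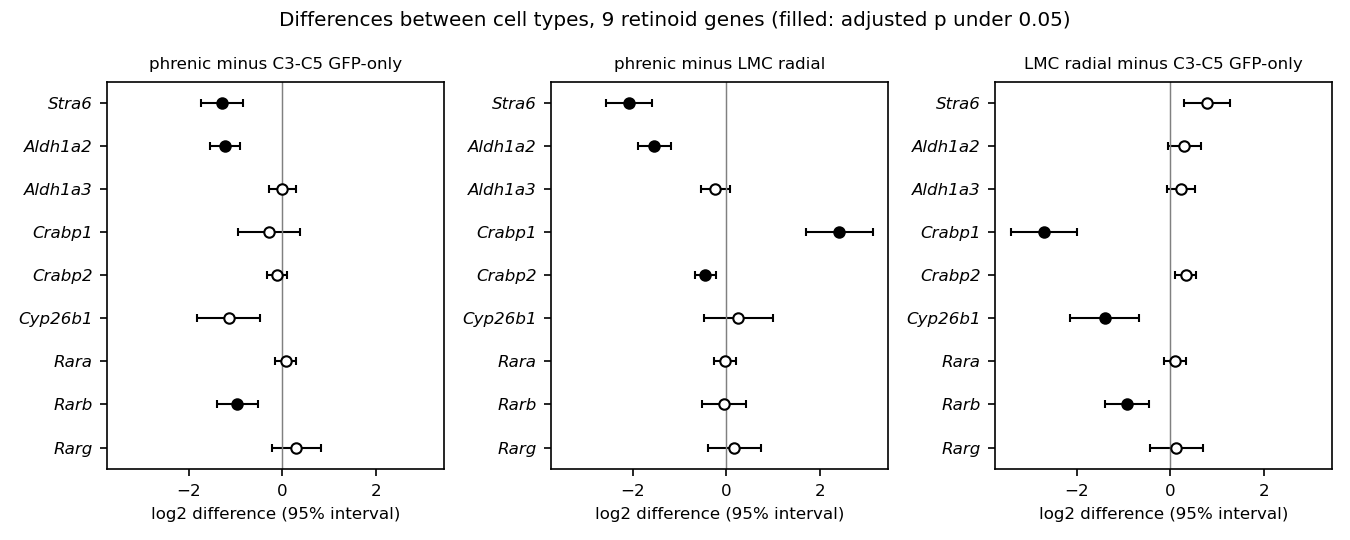
Log2 difference of each member in the 3 comparisons of cell types, with its 95% interval from limma. The differences that passed include Stra6 at -2.08 and Crabp1 at 2.41 in phrenic over LMC radial samples, and Crabp1 at -2.70 in LMC radial over C3-C5 GFP-only samples.

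Stra6 encodes the membrane receptor through which cells take up retinol from its carrier in plasma. Its log2 level was 4.92, 4.48, 4.64 and 5.20 on the phrenic arrays, 7.32, 6.62 and 6.73 on the LMC radial arrays, and 6.46, 6.10, 5.90 and 5.95 on the C3-C5 GFP-only arrays. No array of one type overlapped another, and the phrenic arrays were the lowest, 3 of the 4 below 5. The phrenic mean was 4.81 ± 0.32, against 6.89 ± 0.37 in LMC radial (SD, n = 4 and 3) and 6.10 ± 0.25 in C3-C5 GFP-only samples (SD, n = 4). Phrenic over LMC radial gave -2.08 ± 0.22 log2 (SE, limma adjusted p = 0.000306), a level at least 3.57-fold lower. Over C3-C5 GFP-only samples phrenic gave -1.29 ± 0.20 log2 (SE, limma adjusted p = 0.00824), at least 2.07-fold lower. Phrenic neurons thus read below both other types for the retinol receptor. The comparison of LMC radial with C3-C5 GFP-only samples missed the threshold at 0.79 ± 0.22 log2 (SE, limma adjusted p = 0.0777, 95% interval 0.30 to 1.27), although their arrays did not overlap. It passed without phrenic replicate 4, at 0.79 (limma adjusted p = 0.0469), and without phrenic replicates 1 and 4 together (limma adjusted p = 0.0397). It also passed after quantile normalization, at 1.03 log2 (limma adjusted p = 0.0449), with array weights, at 0.82 log2 (limma adjusted p = 0.0160), with the replicate block, at 0.83 log2 (limma adjusted p = 0.0377), and on the arrays of these types alone (limma adjusted p = 0.0487). These were 6 of 25 alternatives, and under the other 19 the difference did not pass, with limma adjusted p up to 0.419.

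The promoter windows printed here were taken from RefSeq, on GRCm38.p6, as 250 bases before to 50 after an annotated start, on the gene's own strand. They are shown because the retinoid pathway acts on its own genes through receptor elements. Such elements are pairs of a hexamer, searched here on both strands in 4 spellings. Of the 32851 windows of all genes, AGGTCA stood in 16.3%, while GGGTCA was in 13.7%, with AGTTCA in 14.0% and the spelling GGTTCA in 10.4%. Any of these stood in 43.7%, so a single hexamer is common. Windows were listed for 7 of the 9 members, 14 in all, and none for Aldh1a3 and Crabp2. Stra6 has 4 windows, of which 1 (chr9:58133825-58134124, plus strand) holds a hexamer, in capitals, at 16 to 21 from the start.

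Stra6: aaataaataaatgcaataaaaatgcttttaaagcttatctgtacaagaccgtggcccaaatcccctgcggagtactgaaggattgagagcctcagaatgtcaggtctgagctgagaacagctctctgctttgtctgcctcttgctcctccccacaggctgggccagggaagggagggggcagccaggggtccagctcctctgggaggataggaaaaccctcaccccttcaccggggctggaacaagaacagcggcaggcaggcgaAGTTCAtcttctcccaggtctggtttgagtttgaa

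Aldh1a2 encodes the retinaldehyde dehydrogenase that makes most retinoic acid in the early embryo, and it is a known marker of limb-level lateral motor column neurons. On the log2 scale it read 9.24, 9.76, 9.97 and 9.75 on phrenic arrays, 11.23, 11.10 and 11.31 on LMC radial arrays and 10.90, 10.92, 10.83 and 10.99 on C3-C5 GFP-only arrays. Every phrenic array lay below every array of the other types, and the LMC radial and C3-C5 GFP-only arrays did not overlap either. The mean was 9.68 ± 0.31 in phrenic, 11.21 ± 0.11 in LMC radial and 10.91 ± 0.06 in C3-C5 GFP-only samples (SD, n = 4, 3 and 4). Phrenic over LMC radial was -1.53 ± 0.16 log2 (SE, limma adjusted p = 0.000228), 2.89-fold lower. Against C3-C5 GFP-only samples the phrenic difference was -1.23 ± 0.14 log2 (SE, limma adjusted p = 0.00136), 2.34-fold lower. The enzyme was thus read well above 5 on all arrays and lowest in phrenic neurons. LMC radial over C3-C5 GFP-only missed the threshold at 0.30 ± 0.16 log2 (SE, limma adjusted p = 0.306, 95% interval -0.04 to 0.65).

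The single RefSeq window of Aldh1a2 (chr9:71215539-71215838, plus strand) has 78.0% G and C and none of these hexamers. It is shown for comparison with that of Stra6, the other member that was lower in phrenic samples than in both other types.

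Aldh1a2: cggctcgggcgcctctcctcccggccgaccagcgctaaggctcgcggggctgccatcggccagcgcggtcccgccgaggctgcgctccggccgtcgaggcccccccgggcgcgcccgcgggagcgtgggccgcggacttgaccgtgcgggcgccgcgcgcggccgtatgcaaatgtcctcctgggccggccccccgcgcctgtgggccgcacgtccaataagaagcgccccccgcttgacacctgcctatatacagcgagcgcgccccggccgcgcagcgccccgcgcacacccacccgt

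Stra6 and Aldh1a2 were the members set apart as lower in phrenic samples against both other types, where 1.18% of all probe sets were set apart in this type in either direction. The limb column markers had the same order of means, with the marker average at 10.08 in phrenic, 12.15 in LMC radial and 11.36 in C3-C5 GFP-only samples. Foxp1 was likewise set apart as lower in phrenic samples, at -1.22 ± 0.14 log2 over LMC radial (SE, limma adjusted p = 0.000541) and -0.89 ± 0.13 log2 over C3-C5 GFP-only samples (SE, limma adjusted p = 0.00535). Lhx1 passed over LMC radial, at -2.91 ± 0.41 log2 (SE, limma adjusted p = 0.00193), and missed the threshold over C3-C5 GFP-only samples, at -1.66 ± 0.38 log2 (SE, limma adjusted p = 0.0535). The part of the limb column genes' cells in the Stra6 and Aldh1a2 differences was not tested. Leaving out any 1 of the 11 arrays kept the Stra6 and Aldh1a2 calls. Within the 7 arrays of the higher 25th percentile, phrenic over C3-C5 GFP-only was -1.45 log2 for Aldh1a2 (limma adjusted p = 0.0568) and -1.14 log2 for Stra6 (limma adjusted p = 0.199). Within the other 4 arrays it was -1.01 for Aldh1a2 (limma adjusted p = 0.0950) and -1.44 for Stra6 (limma adjusted p = 0.0568), so the direction held in both sets and no call did, with 2 phrenic and 2 C3-C5 GFP-only arrays in either set. Against LMC radial the differences within the 7 arrays were -1.72 for Aldh1a2 (limma adjusted p = 0.0119) and -1.83 for Stra6 (limma adjusted p = 0.0300), and both passed. The mesenchyme and meninges genes averaged higher in phrenic than in C3-C5 GFP-only samples. With their array mean as a covariate, phrenic over C3-C5 GFP-only was -1.33 log2 for Aldh1a2 (limma adjusted p = 0.0745) and -1.57 log2 for Stra6 (limma adjusted p = 0.121), and neither passed. The arrays of these types did not overlap in that mean, so it cannot be told apart from type. The part of those tissues in the Stra6 and Aldh1a2 differences was not tested.

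Aldh1a3 encodes a related dehydrogenase with a narrower range in the embryo. Its level was 4.44, 4.49, 4.18 and 4.62 on phrenic arrays, 4.55, 4.51 and 4.93 on LMC radial arrays and 4.53, 4.38, 4.39 and 4.41 on C3-C5 GFP-only arrays. The types overlapped and 0 of 11 arrays reached 5, so the gene was not measured above background. Its other 2 probe sets lay between 2.29 and 3.97, and no probe set of Aldh1a3 passed in any comparison.

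Crabp1 encodes a cytosolic retinoic acid binding protein that is thought to hold the signal and bring it to its breakdown. Crabp1 read 9.98, 9.95, 9.82 and 10.91 on phrenic arrays, 7.56, 8.54 and 7.15 on LMC radial arrays and 10.45, 10.27, 10.53 and 10.55 on C3-C5 GFP-only arrays. The LMC radial arrays lay below all others, and the phrenic and C3-C5 GFP-only arrays overlapped through phrenic replicate 4. The mean was 10.17 ± 0.50 in phrenic, 7.75 ± 0.71 in LMC radial and 10.45 ± 0.13 in C3-C5 GFP-only samples (SD, n = 4, 3 and 4). Phrenic over LMC radial was 2.41 ± 0.32 log2 (SE, limma adjusted p = 0.00143), 5.33-fold higher. LMC radial over C3-C5 GFP-only was -2.70 ± 0.32 log2 (SE, limma adjusted p = 0.00182), 6.48-fold lower. LMC radial neurons thus stood below both other types. Phrenic over C3-C5 GFP-only did not pass, at -0.28 ± 0.30 log2 (SE, limma adjusted p = 0.797, 95% interval -0.94 to 0.37). Leaving out any 1 array kept both calls. Within the 7 arrays of the higher 25th percentile, phrenic over LMC radial was 2.69 log2 (limma adjusted p = 0.0420) and LMC radial over C3-C5 GFP-only was -2.75 log2 (limma adjusted p = 0.0985). Crabp1 was the 1 member set apart as lower in LMC radial samples against both other types, where 2.55% of all probe sets were set apart in either direction. Its RefSeq window held none of the hexamers.

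Crabp2 encodes the sister protein, known to carry retinoic acid to its nuclear receptors. Crabp2 read 11.61, 11.69, 11.55 and 11.38 on phrenic arrays, 11.93, 12.06 and 12.02 on LMC radial arrays and 11.77, 11.67, 11.68 and 11.59 on C3-C5 GFP-only arrays. The LMC radial arrays lay above all others by a small margin, and the phrenic and C3-C5 GFP-only arrays overlapped. Mean levels were 11.56 ± 0.13 in phrenic, 12.00 ± 0.06 in LMC radial and 11.68 ± 0.08 in C3-C5 GFP-only samples (SD, n = 4, 3 and 4). Phrenic over LMC radial was -0.45 ± 0.10 log2 (SE, limma adjusted p = 0.0286), 1.36-fold lower. This call was lost without phrenic replicate 3 or any 1 of the LMC radial arrays, at -0.48 to -0.42 log2 (limma adjusted p = 0.0590 to 0.102), and within the 7 arrays of the higher 25th percentile, at -0.51 log2 (limma adjusted p = 0.141). Phrenic over C3-C5 GFP-only did not pass, at -0.12 ± 0.10 log2 (SE, limma adjusted p = 0.700, 95% interval -0.33 to 0.09). LMC radial over C3-C5 GFP-only missed the threshold too, at 0.33 ± 0.10 log2 (SE, limma adjusted p = 0.115, 95% interval 0.10 to 0.56). The 2 binding proteins took opposite orders in LMC radial neurons, with Crabp1 lower and Crabp2 higher there than in phrenic neurons.

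Cyp26b1 encodes an enzyme that oxidises retinoic acid and so clears it. Cyp26b1 read 5.26, 4.41, 5.70 and 5.91 on phrenic arrays, 5.43, 5.14 and 4.63 on LMC radial arrays and 6.88, 6.31, 6.48 and 6.18 on C3-C5 GFP-only arrays. The C3-C5 GFP-only arrays lay above all others, and the phrenic and LMC radial arrays overlapped. Group means were 5.32 ± 0.67 in phrenic, 5.07 ± 0.41 in LMC radial and 6.46 ± 0.30 in C3-C5 GFP-only samples (SD, n = 4, 3 and 4). LMC radial over C3-C5 GFP-only was -1.40 ± 0.33 log2 (SE, limma adjusted p = 0.0446), 2.63-fold lower. The call was lost without phrenic replicate 1, any 1 of the C3-C5 GFP-only arrays or any 1 of the LMC radial arrays, at -1.58 to -1.18 log2 (limma adjusted p = 0.0555 to 0.153). Phrenic over C3-C5 GFP-only missed the threshold at -1.14 ± 0.31 log2 (SE, limma adjusted p = 0.103, 95% interval -1.82 to -0.46), and without phrenic replicate 4 it passed at -1.34 log2 (limma adjusted p = 0.0452). Phrenic over LMC radial was 0.25 ± 0.33 log2 (SE, limma adjusted p = 0.700, 95% interval -0.48 to 0.99). Within the 7 arrays of the higher 25th percentile LMC radial over C3-C5 GFP-only was -1.47 log2 (limma adjusted p = 0.204), and with the Actb 3′ to 5′ difference as a covariate it was -1.29 log2 (limma adjusted p = 0.171). The direction was thus kept while the call was not. With the mesenchyme and meninges mean as a covariate, LMC radial over C3-C5 GFP-only was -2.12 log2 (limma adjusted p = 0.00896) and phrenic over C3-C5 GFP-only -2.24 log2 (limma adjusted p = 0.0322). Neither type overlapped the C3-C5 GFP-only arrays in that mean, so the covariate cannot be told apart from type here. The part of those tissues in the Cyp26b1 differences was not tested. The window of Cyp26b1 held none of the hexamers.

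Of the receptors, Rarb was the 1 that passed. Its gene is a direct target of retinoic acid in many cell types, through a repeat of such hexamers in its promoter. Rarb read 7.23, 6.95, 6.73 and 6.34 on phrenic arrays, 7.18, 6.49 and 6.90 on LMC radial arrays and 7.91, 7.87, 7.70 and 7.61 on C3-C5 GFP-only arrays. Each C3-C5 GFP-only array lay above every other array, while phrenic and LMC radial arrays overlapped. The mean was 6.81 ± 0.38 in phrenic, 6.86 ± 0.35 in LMC radial and 7.77 ± 0.14 in C3-C5 GFP-only samples (SD, n = 4, 3 and 4). Phrenic over C3-C5 GFP-only was -0.96 ± 0.20 log2 (SE, limma adjusted p = 0.0343), 1.94-fold lower. LMC radial over C3-C5 GFP-only was -0.92 ± 0.21 log2 (SE, limma adjusted p = 0.0415), 1.89-fold lower. Rarb RNA was thus lower in both tracer-labelled populations than in the reporter-only cells. Phrenic over LMC radial did not pass, at -0.04 ± 0.21 log2 (SE, limma adjusted p = 0.932, 95% interval -0.51 to 0.43). Rarb was the 1 member set apart as higher in C3-C5 GFP-only samples against both other types, where 0.262% of all probe sets were set apart in either direction.

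Both Rarb calls stood near the threshold. Phrenic over C3-C5 GFP-only was lost without phrenic replicate 2 or 3, LMC radial replicate 3 or any 1 of the C3-C5 GFP-only arrays, at -1.01 to -0.91 log2 (limma adjusted p = 0.0514 to 0.107). LMC radial over C3-C5 GFP-only was lost without phrenic replicate 2 or 3, any 1 of the C3-C5 GFP-only arrays or any 1 of the LMC radial arrays, at -1.08 to -0.73 log2 (limma adjusted p = 0.0511 to 0.140). Within the 7 arrays of the higher 25th percentile Rarb was -0.98 log2 in phrenic over C3-C5 GFP-only (limma adjusted p = 0.351) and -0.90 log2 in LMC radial over C3-C5 GFP-only (limma adjusted p = 0.370), and within the other 4 the phrenic difference was -0.94 log2 (limma adjusted p = 0.116). Its size thus changed little between array sets, without a call in either. With the Actb 3′ to 5′ difference as a covariate LMC radial over C3-C5 GFP-only was -1.05 log2 (limma adjusted p = 0.0764). The medial column markers Lhx3 and Lhx4 and the motor neuron marker Isl2, like Rarb, were set apart as higher in C3-C5 GFP-only samples. The part of these markers' cells in the Rarb difference was not tested. With the mesenchyme and meninges mean as a covariate, Rarb moved to -0.50 log2 in phrenic over C3-C5 GFP-only (limma adjusted p = 0.728) and to -0.61 log2 in LMC radial over C3-C5 GFP-only (limma adjusted p = 0.281). The C3-C5 GFP-only arrays overlapped neither other type in that mean, so it cannot be told apart from type in these comparisons. The part of those tissues in the Rarb difference was not tested.

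The RefSeq window of Rarb (chr14:16575427-16575726, minus strand) was the only one of the 14 member windows that held a direct repeat of hexamers 5 bases apart, at -53 to -37 from the start. Such repeats, of 2 of these hexamers on 1 strand with 5 bases between, stand in 32 of 32851 windows (0.0974%). The capitals mark 3 hexamers: the leftmost, at -83 to -78, stands alone, and the other two make the repeat. Repeats with 1 base (0.222% of windows) or 2 bases (0.268%) between the hexamers were in no member window.

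Rarb: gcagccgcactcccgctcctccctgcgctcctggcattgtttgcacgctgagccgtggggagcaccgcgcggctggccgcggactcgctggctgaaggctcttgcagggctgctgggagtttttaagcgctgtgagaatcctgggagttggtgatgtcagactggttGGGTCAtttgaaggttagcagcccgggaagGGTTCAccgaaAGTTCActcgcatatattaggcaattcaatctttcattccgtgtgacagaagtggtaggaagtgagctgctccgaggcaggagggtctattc

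Rara, the receptor found in most cells, was read at a low level on every array. Rara read 5.27, 5.31, 5.19 and 5.50 on phrenic arrays, 5.38, 5.21 and 5.45 on LMC radial arrays and 5.27, 5.27, 5.18 and 5.27 on C3-C5 GFP-only arrays. The types overlapped and no comparison passed, with 95% intervals of -0.15 to 0.29 in phrenic over C3-C5 GFP-only, -0.27 to 0.21 in phrenic over LMC radial and -0.14 to 0.34 in LMC radial over C3-C5 GFP-only samples. Of its 4 RefSeq windows, 2 held hexamers.

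Rarg, a receptor best known in skin and skeletal precursors, read 4.32, 4.55, 4.24 and 5.53 on phrenic arrays, 4.49, 4.57 and 4.41 on LMC radial arrays and 4.36, 4.31, 4.44 and 4.32 on C3-C5 GFP-only arrays. Phrenic replicate 4 was the 1 of 11 arrays at or above 5. No comparison of Rarg passed, and its second probe set lay between 2.74 and 3.43.

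The orders of the group means differed among members. LMC radial was highest and phrenic lowest for Stra6, Aldh1a2 and Crabp2, and between neighbours in that order only phrenic over C3-C5 GFP-only passed, in Stra6 and Aldh1a2. C3-C5 GFP-only was highest and LMC radial lowest for Crabp1 and Cyp26b1, and between neighbours only phrenic over LMC radial passed, in Crabp1. Aldh1a3, Rara and Rarg had no difference between neighbours that passed. For Rarb, C3-C5 GFP-only was highest, and phrenic over LMC radial did not pass. Phrenic replicate 4 was the highest phrenic array for Stra6, Aldh1a3, Crabp1, Cyp26b1, Rara and Rarg and the lowest for Crabp2 and Rarb, and it was also the highest of the phrenic arrays in the mesenchyme mean (6.86) and in the neural progenitor mean (7.66). The same array was highest among phrenic arrays in the medial column (8.11), limb column (10.83) and neural crest and Schwann cell (6.52) means. It was the lowest of them in the motor neuron (7.50) and endothelium (3.82) means.

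The wider retinoid pathway gave 35 measured genes of 43 listed, of which 6 passed in at least 1 comparison and 29 in none. Among 13 of 15 genes of supply and oxidation, 1 passed, in phrenic over LMC radial (7.69% of the list, against 6.61% of all probe sets). This was Dhrs3, a reductase known to return retinaldehyde to retinol, with 6.01 ± 0.69 in phrenic, 4.59 ± 0.55 in LMC radial and 4.92 ± 0.30 in C3-C5 GFP-only samples (SD, n = 4, 3 and 4). Its difference in phrenic over LMC radial was 1.42 ± 0.36 log2 (SE, limma adjusted p = 0.0414), at least 1.92-fold higher, and it was lost in 8 of 11 fits that left out 1 array, at 1.20 to 1.52 log2 (limma adjusted p = 0.0538 to 0.149). The replicate block on all 11 arrays ended this call too (limma adjusted p = 0.0586). So did raising values below 5 to 5, the fit behind the lower bound, at 0.94 log2 (limma adjusted p = 0.277). The Dhrs3 call held under 6 of 25 alternatives. None of the 3 measured genes of the list of other breakdown and binding genes, 4 in all, passed in any comparison.

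Of 10 measured receptor partners and cofactors (12 listed), 2 passed as lower in phrenic over C3-C5 GFP-only samples (20% of the list, against 1.96% of all probe sets) and 1 as lower in LMC radial over C3-C5 GFP-only samples (10% against 3.76%). Rxrg, the RXR partner with the most restricted expression, had a mean of 4.56 ± 0.42 in phrenic, 4.35 ± 0.12 in LMC radial and 5.72 ± 0.19 in C3-C5 GFP-only samples (SD, n = 4, 3 and 4). It was -1.17 ± 0.19 log2 in phrenic over C3-C5 GFP-only (SE, limma adjusted p = 0.00985), at least 1.63-fold lower, and -1.38 ± 0.21 log2 in LMC radial over C3-C5 GFP-only (SE, limma adjusted p = 0.00555), at least 1.65-fold lower. Like Rarb, it was set apart as higher in C3-C5 GFP-only samples. Nrip1, a corepressor of ligand-bound nuclear receptors, had 8.32 ± 0.07 in phrenic, 8.82 ± 0.13 in LMC radial and 9.42 ± 0.47 in C3-C5 GFP-only samples (SD, n = 4, 3 and 4). Its difference in phrenic over C3-C5 GFP-only was -1.11 ± 0.20 log2 (SE, limma adjusted p = 0.0158), and it was lost without C3-C5 GFP-only replicate 2, 3 or 4 (limma adjusted p = 0.0552 to 0.0589). Without C3-C5 GFP-only replicate 1 Nrip1 also passed in phrenic over LMC radial, at -0.50 log2 (limma adjusted p = 0.0259), and in LMC radial over C3-C5 GFP-only, at -0.84 log2 (limma adjusted p = 0.00648). With replicate number as a block on the 8 phrenic and C3-C5 GFP-only arrays, both lost the call in that comparison, with limma adjusted p = 0.0811 for Rxrg and 0.100 for Nrip1.

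Known retinoic acid targets, 9 measured of 12 listed, had 3 genes that passed. In phrenic over C3-C5 GFP-only 1 of 9 passed (11.1% of the list, against 1.96% of all probe sets), in phrenic over LMC radial 2 of 9 (22.2% against 6.61%) and in LMC radial over C3-C5 GFP-only 2 of 9 (22.2% against 3.76%). Hoxa4 and Hoxb4 are Hox genes of hindbrain and cervical levels. Hoxa4 averaged 8.73 ± 0.20 in phrenic, 7.15 ± 0.22 in LMC radial and 8.64 ± 0.12 in C3-C5 GFP-only samples (SD, n = 4, 3 and 4), with 1.58 ± 0.14 log2 in phrenic over LMC radial (SE, limma adjusted p = 0.000113) and -1.49 ± 0.14 log2 in LMC radial over C3-C5 GFP-only (SE, limma adjusted p = 0.000455). Hoxb4 averaged 8.65 ± 0.56 in phrenic, 6.60 ± 0.13 in LMC radial and 7.86 ± 0.29 in C3-C5 GFP-only samples (SD, n = 4, 3 and 4), with 2.05 ± 0.27 log2 in phrenic over LMC radial (SE, limma adjusted p = 0.0013) and -1.26 ± 0.27 log2 in LMC radial over C3-C5 GFP-only (SE, limma adjusted p = 0.0298). The second of these Hoxb4 calls was lost without C3-C5 GFP-only replicate 2 or 3 or any 1 of the LMC radial arrays, at -1.34 to -1.16 log2 (limma adjusted p = 0.0725 to 0.0974). It was also lost with the replicate block on all 11 arrays, at -1.18 log2 (limma adjusted p = 0.0550), and with the Actb covariate, at -0.88 log2 (limma adjusted p = 0.0847). The mean over its probe sets gave smaller Hoxb4 differences that passed, 1.15 log2 (limma adjusted p = 0.000519) and -0.71 log2 (limma adjusted p = 0.0200). Meis1, a Hox cofactor, averaged 7.62 ± 0.57 in phrenic, 8.44 ± 0.14 in LMC radial and 9.25 ± 0.33 in C3-C5 GFP-only samples (SD, n = 4, 3 and 4), with -1.63 ± 0.26 log2 in phrenic over C3-C5 GFP-only (SE, limma adjusted p = 0.00824). The mean over the probe sets of Meis1 gave -0.77 log2 there (limma adjusted p = 0.0522), so its probe sets gave differences of unlike size. With the replicate block on all 11 arrays Meis1 also passed in phrenic over LMC radial, at -0.78 log2 (limma adjusted p = 0.0410), and in LMC radial over C3-C5 GFP-only, at -0.84 log2 (limma adjusted p = 0.0417). Within the 7 arrays of the higher 25th percentile, Hoxa4 (1.53 log2, limma adjusted p = 0.0193) and Hoxb4 (2.11 log2, limma adjusted p = 0.0420) passed in phrenic over LMC radial. There the differences of Rxrg and Nrip1 in phrenic over C3-C5 GFP-only were -1.22 log2 (limma adjusted p = 0.107) and -0.84 log2 (limma adjusted p = 0.293), that of Meis1 was -1.80 log2 (limma adjusted p = 0.0550), and none of them passed.

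**Figure D3:**
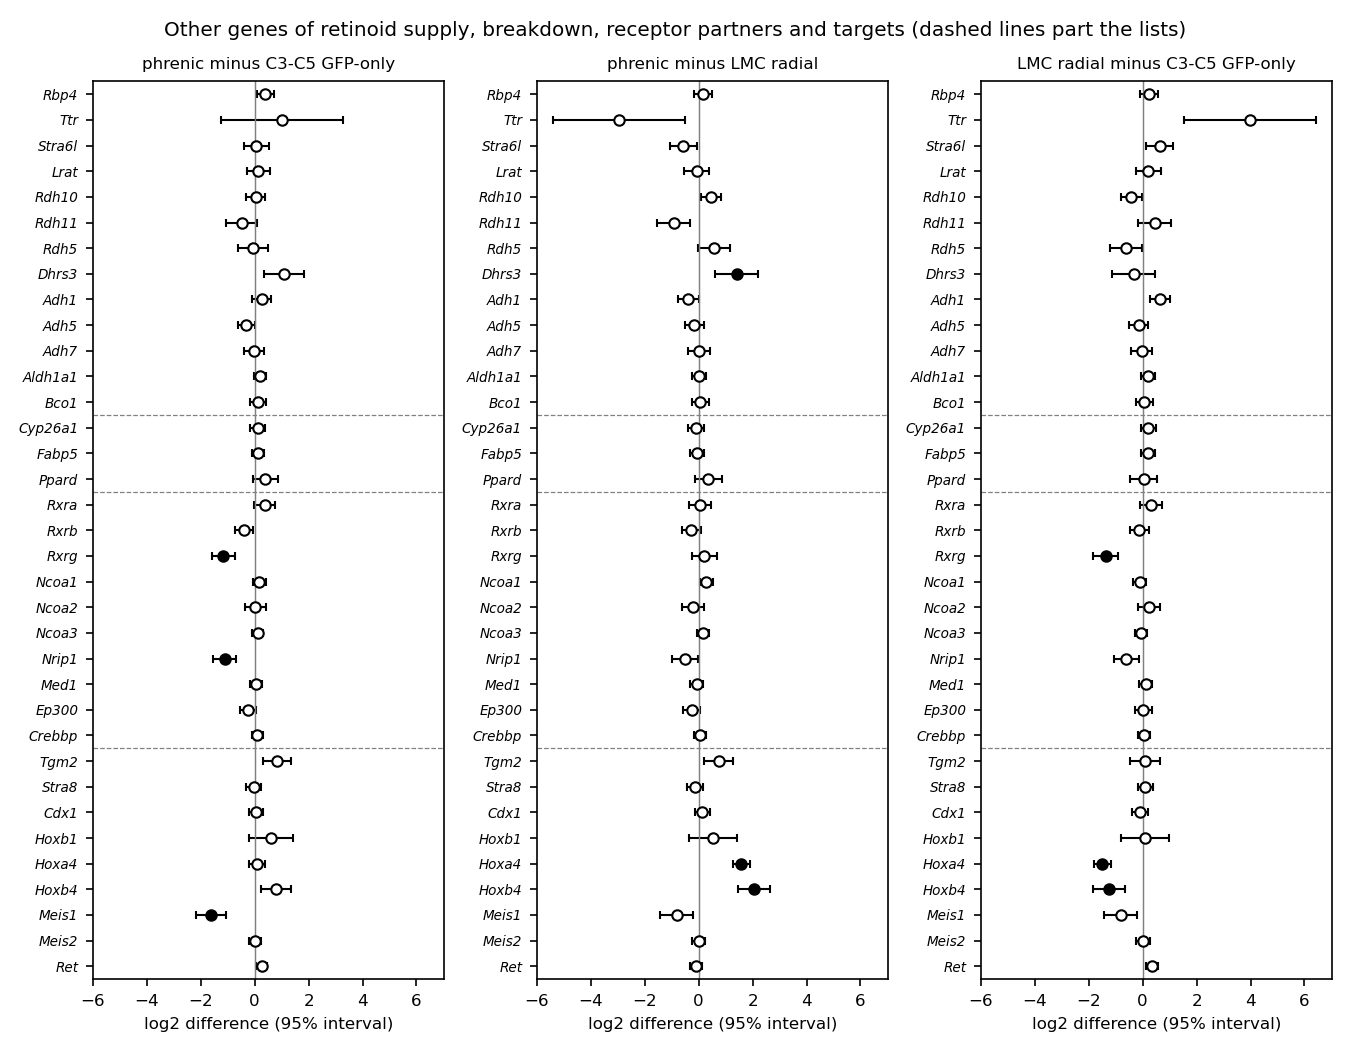
Log2 difference of the measured genes of the wider retinoid lists in each comparison, with 95% intervals from limma, dashed lines between the lists and filled points for those that passed. Most genes lie near 0, and the points that passed include Hoxb4 at 2.05 in phrenic over LMC radial and Rxrg at -1.38 in LMC radial over C3-C5 GFP-only.

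The genes whose pattern over the 11 arrays lay closest to a member were found as the smallest root mean square difference of centred log2 levels among 10424 genes. This is a description, since all points share arrays. For Aldh1a2 they were Plcb4 (0.177), a phospholipase C, Dysf (0.185), a membrane repair protein, and Slit1 (0.203), a secreted guidance protein, where Aldh1a2 itself varied by 0.686. For Stra6 they were Gfra1 (0.273), a GDNF receptor, Kcnip1 (0.274), a partner of potassium channels, and Pcdh19 (0.310), a protocadherin, where Stra6 itself varied by 0.883. Gfra1 averaged 8.18 in phrenic, 10.20 in LMC radial and 9.52 in C3-C5 GFP-only samples, the same order as Stra6. The closest to Crabp1 were Chrna3 (0.419), a nicotinic receptor subunit, Zfpm2 (0.428), a partner of GATA factors, and C2cd5 (0.439), where Crabp1 varied by 1.21. Crabp2 had Clmp (0.0630), Borcs5 (0.0809) and Npc2 (0.0849), where it varied by 0.198. Cyp26b1 had Irx2 (0.344), Fat3 (0.371) and Plpp3 (0.391), where it varied by 0.741. Rarb had Myl6b (0.243), Paqr9 (0.267) and Pcnx (0.274), where it varied by 0.521.

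**Figure D4:**
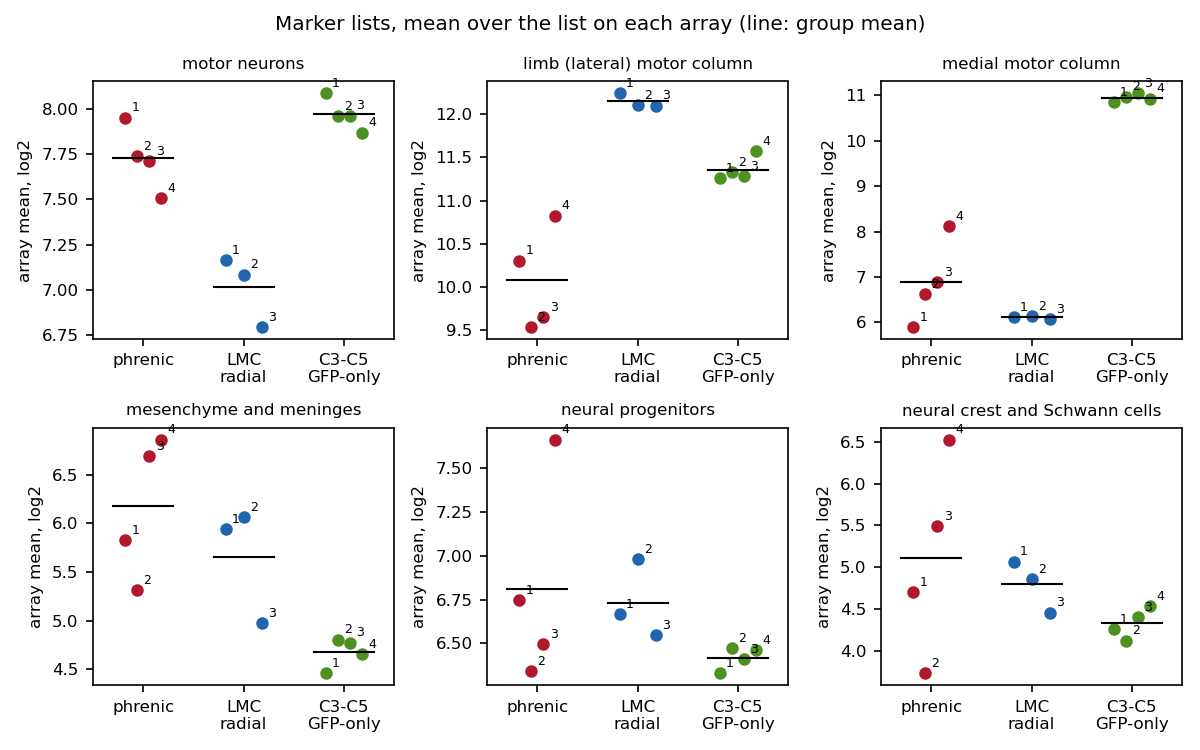
Mean log2 level of each list of cell markers on every array, by type. The mesenchyme and meninges mean reached 6.86 on phrenic replicate 4 and stayed at or below 4.80 on the C3-C5 GFP-only arrays, and the medial column mean was at least 10.85 on the C3-C5 GFP-only arrays.

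**Figure D5:**
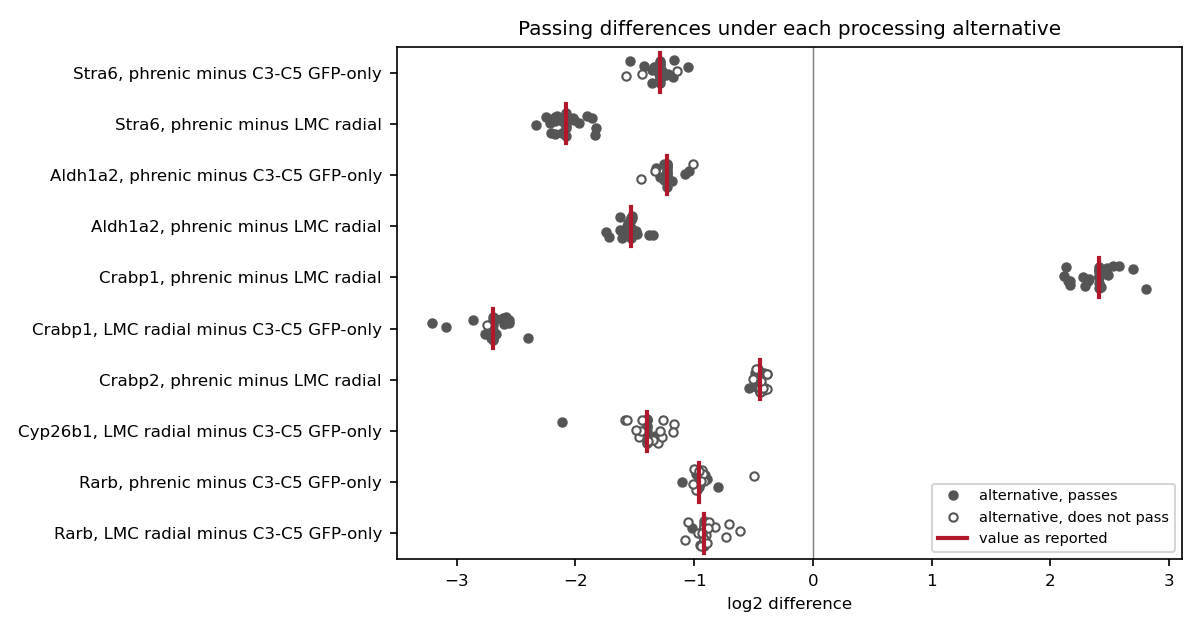
Log2 difference of the members that passed in a comparison under the deposited values (red line) and under each alternative (points, filled where it passed). Stra6, Aldh1a2 and Crabp1 passed under all alternatives in phrenic over LMC radial, whereas Rarb and Cyp26b1 lost the call under many.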

How the data were processed

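The deposited values were log2 expression levels, 1 per probe set and array, which the authors made with RMA, per the submitters' processing notes; its version is not stated. Of 45101 probe sets, 64 controls were left out and 45037 tested. Of the tested ones 34945 had 1 gene symbol, 932 several and 9160 none, and no other filter was applied. Precision is limited by the number of arrays.

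Samples were grouped by the cell type that their labels give. A mean per type was fitted to all 11 arrays in limma 3.58.1 (R 4.3.3, 8 residual and 2.92 prior degrees of freedom). Two-sided moderated p-values were adjusted by the Benjamini-Hochberg method across every tested probe set, separately in each of 3 comparisons, and an adjusted p under 0.05 passed. Members and lists were chosen with earlier results of these data known. All 9 members are named, together with each wider retinoid gene that passed and the 3 genes most alike each member that passed.

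The replicate numbers of phrenic and C3-C5 GFP-only arrays were checked for pairing: deviations from group means correlated at 0.125 to 0.224 within the 4 pairs, and at -0.083 to 0.050 for pairs with LMC radial arrays. Alternatives changed normalization, background floor, filter, variance prior, array weights, pairing, gene summary, arrays fitted and covariates (the 3′ to 5′ difference of Actb, and the mesenchyme and meninges list). Fits within the 4 arrays, with the array set as a block and with the block on 8 arrays were chosen after seeing the data.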

Additional observations from a re-analysis of the deposited data

Results flagged for a closer look

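Dixon's test was applied to each member in each group of 4 arrays, 18 groups in all and chance picks about 5% of groups. Crabp1 on phrenic replicate 4 stood at 10.91 log2, away from the other phrenic arrays at 9.82 to 9.98 (ratio 0.847). Rara on C3-C5 GFP-only replicate 3 stood at 5.18 log2, below the other arrays of that type at 5.27 (ratio 0.960), a gap of under 0.1 log2.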

How the results depend on the processing

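Every difference of a member that passed kept its sign under each of the 25 to 27 alternatives. In phrenic over LMC radial samples, Aldh1a2 (-1.74 to -1.35 log2), Stra6 (-2.33 to -1.83) and Crabp1 (2.11 to 2.81) passed under all 25, and Crabp2 under 15. In phrenic over C3-C5 GFP-only samples Aldh1a2 and Stra6 passed under 24 of 27 and Rarb under 15. In LMC radial over C3-C5 GFP-only samples Crabp1 passed under 24 of 25, Cyp26b1 under 10 and Rarb under 9. The count of members that passed in phrenic over C3-C5 GFP-only was 3, and it was 0 within the 7 arrays, 0 within the 4 arrays, 1 with the mesenchyme covariate and 2 to 4 with 1 array left out. With the mesenchyme covariate that 1 was Cyp26b1, which missed the threshold without it, while Aldh1a2, Stra6 and Rarb lost the call. That covariate cannot be told apart from type in phrenic over C3-C5 GFP-only samples. In LMC radial over C3-C5 GFP-only the count was 3, and it was 1 after centring on the median, 1 with values below 5 raised, 5 with array weights, 0 within the 7 arrays, 1 with the Actb covariate, 1 with the array set as a block and 1 to 4 with 1 array left out. In phrenic over LMC radial it was 4, and 3 to 4 with 1 array left out. The cause of these changes was not tested, and the fits within sets also held fewer arrays. With the replicate block on all 11 arrays 3 members passed in each comparison: Crabp2 in phrenic over LMC radial (-0.40 log2, limma adjusted p = 0.0563) and Cyp26b1 in LMC radial over C3-C5 GFP-only (-1.35 log2, limma adjusted p = 0.0639) lost the call, and Stra6 gained it in the second of these (0.83 log2, limma adjusted p = 0.0377). With replicate number as a block on the 8 phrenic and C3-C5 GFP-only arrays, the 3 calls in that comparison held (limma adjusted p = 0.0412 for Aldh1a2, 0.0486 for Stra6 and 0.0499 for Rarb). The block changed no other call of a member. Of all probe sets that passed, 52.6% were higher in phrenic over LMC radial with the deposited values, 42.5% after quantile normalization and 39.1% after centring, and in LMC radial over C3-C5 GFP-only 50%, 58.6% and 64.1%. Levels near 5 limit Stra6, Cyp26b1, Rara, Rarg and Aldh1a3.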

Other observations

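Ttr, a carrier of thyroid hormone and of retinol binding protein in plasma, varied widely between arrays of 1 type and passed in no comparison; it was chosen after its values were seen. Its log2 mean was 4.12 ± 1.68 in phrenic, 7.08 ± 2.68 in LMC radial and 3.10 ± 0.21 in C3-C5 GFP-only samples (SD, n = 4, 3 and 4), and the LMC radial arrays ran from 4.45 to 9.81.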
